A study of Mus musculus with 6 samples.

Results

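The peaks described here are sites of RBPJ occupancy that were listed in asynchronous F9 cells, had no listed counterpart in mitotic cells and lay far from any annotated gene. They were chosen by measured values, namely the positions of the peaks in both lists. An asynchronous peak was taken when no mitotic peak center lay within 250 bp of its center and when its center was outside every annotated transcript, more than 10 kb upstream of any transcript start and more than 1 kb past any transcript end. Of the 5206 asynchronous peaks, 1043 met this rule (20.03%), and they are referred to as interphase-only intergenic peaks. The words "interphase-only" state that no mitotic peak was called nearby. They do not state that the mitotic signal at these sites was 0, since the reads were not examined.

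F9 is a murine embryonal carcinoma cell line that resembles early pluripotent cells. Chromatin from asynchronous F9 cells, which the labels describe as 95% interphase and 5% mitosis, and from F9 cells arrested in mitosis with the microtubule poison nocodazole was immunoprecipitated with an antibody against RBPJ and sequenced. The series has 6 libraries, and a peak list was used from replicate 1 of each cell population, 5206 peaks in asynchronous and 3227 in mitotic cells. With 1 list per population there were no replicates, so the tests compare peaks of the asynchronous list with one another or with nearby sequence, and all intervals cover counting error only. RBPJ is the DNA-binding protein through which the Notch receptors reach their target genes. Without a Notch signal it holds corepressors at these genes, and with a signal it binds the cleaved Notch receptor and the coactivator Mastermind. CTCF, whose motif was also searched, is a zinc-finger protein that marks insulators and the anchors of chromatin loops.

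The 4 highest scoring interphase-only intergenic peaks with an RBPJ consensus are shown first, as the clearest examples of the motif away from genes. All positions are in mm9, and the sequences are the plus strand, 5′ to 3′, over the 173 bp of the listed peak. Capitals mark the RBPJ consensus, TTCCCACA or TTCCCACG, or its reverse complement, TGTGGGAA or CGTGGGAA. Peak strength is given as the score deposited by the authors, which ran from 10.1 to 58.3 in the asynchronous list and was compared only within that list. The peak at chr4:154320545-154320717 (score 32.9) lay 14.4 kb upstream of Hes5 (ENSMUSG00000048001.7), a basic helix-loop-helix repressor and a classical Notch target. The peak at chr13:47369016-47369188 (score 32.5) lay 79.7 kb downstream of the start of Rnf144b (ENSMUSG00000038068.8), a ubiquitin ligase gene, and 25.7 kb past its end. The peak at chr14:76552393-76552565 (score 28.7) lay 41.8 kb downstream of the start of Nufip1 (ENSMUSG00000022009.1) and 15.3 kb past its end. Its place here rests on the mitotic list of replicate 1 alone, in which the nearest center lay 67.4 kb away, and the mitotic reads at this site were not examined here. It is shown for its motif and score, and not as a site free of RBPJ in mitosis. The peak at chr9:120599805-120599977 (score 24.5) lay 113 kb downstream of the start of 5830454E08Rik (ENSMUSG00000052658.4). In each of these peaks the consensus lay within 25 bp of the peak center.
Hes5 peak: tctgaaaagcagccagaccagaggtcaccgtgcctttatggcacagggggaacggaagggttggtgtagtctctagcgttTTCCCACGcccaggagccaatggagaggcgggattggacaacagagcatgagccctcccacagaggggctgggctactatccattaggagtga
Rnf144b peak: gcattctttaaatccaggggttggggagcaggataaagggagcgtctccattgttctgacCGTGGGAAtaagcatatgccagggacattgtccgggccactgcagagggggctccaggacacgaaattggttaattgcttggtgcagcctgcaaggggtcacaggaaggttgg
Nufip1 peak: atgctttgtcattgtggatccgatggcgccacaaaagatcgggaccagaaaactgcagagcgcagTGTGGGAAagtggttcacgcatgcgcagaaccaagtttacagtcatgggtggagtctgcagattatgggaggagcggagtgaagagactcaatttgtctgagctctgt
5830454E08Rik peak: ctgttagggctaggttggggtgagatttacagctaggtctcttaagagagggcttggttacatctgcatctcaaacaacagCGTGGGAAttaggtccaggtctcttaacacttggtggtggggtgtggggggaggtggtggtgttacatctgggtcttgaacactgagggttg

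The next sequences are the 2 highest scoring peaks with a CTCF core, a motif of 12 bases that was accepted with at most 1 mismatch and is marked by capitals. The peak at chr12:112381525-112381697 had the highest score of all the interphase-only intergenic peaks (39.7) and lay 23.0 kb upstream of Traf3 (ENSMUSG00000021277.9), which encodes an adaptor of tumor necrosis factor receptors. The peak at chr12:103738059-103738231 (score 26.2) lay 2.03 kb past the end of Golga5 (ENSMUSG00000021192.8), a gene for a Golgi protein. The core of the Traf3 peak was on the minus strand with 1 mismatch, and that of the Golga5 peak was on the plus strand without a mismatch.
Traf3 peak: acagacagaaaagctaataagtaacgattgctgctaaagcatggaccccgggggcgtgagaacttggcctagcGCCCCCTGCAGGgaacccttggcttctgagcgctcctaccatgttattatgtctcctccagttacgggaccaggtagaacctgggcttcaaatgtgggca
Golga5 peak: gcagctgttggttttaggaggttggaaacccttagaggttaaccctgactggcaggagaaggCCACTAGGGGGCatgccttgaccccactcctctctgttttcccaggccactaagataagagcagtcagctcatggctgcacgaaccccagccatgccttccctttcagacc

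The last pair are the 2 highest scoring peaks that held both motifs, both of them in capitals. The peak at chr15:74726881-74727053 (score 19.0) lay 14.8 kb upstream of 2010109I03Rik (ENSMUSG00000063522.4), and the peak at chr3:84149011-84149183 (score 16.5) lay 39.7 kb upstream of Trim2 (ENSMUSG00000027993.10), a ubiquitin ligase gene. In each of them the CTCF core was on the plus strand and came first, and the RBPJ consensus was on the minus strand.
2010109I03Rik peak: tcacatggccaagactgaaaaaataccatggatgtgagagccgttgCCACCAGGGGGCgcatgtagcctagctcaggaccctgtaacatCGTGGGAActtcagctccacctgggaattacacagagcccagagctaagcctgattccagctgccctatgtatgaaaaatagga
Trim2 peak: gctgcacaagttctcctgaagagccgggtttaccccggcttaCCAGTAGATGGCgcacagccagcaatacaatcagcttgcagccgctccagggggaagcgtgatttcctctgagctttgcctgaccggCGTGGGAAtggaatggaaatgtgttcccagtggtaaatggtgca

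The RBPJ consensus was present in 104 of the 1043 peaks, or 9.97% (exact Clopper-Pearson 95% interval 8.22 to 12.0). To give the rate in nearby sequence, windows of the same width were taken 2 kb to the left and right of each peak center, and 31 of 2084 such windows held the consensus (1.49%). The odds ratio was 7.33 (Woolf 95% interval 4.88 to 11.0). By Fisher's exact test, used two-sided throughout, this gave adjusted p = 6.38e-26, with 8 RBPJ and CTCF comparisons adjusted together by Benjamini-Hochberg. In all motif comparisons with windows, the windows were pooled, so the pairing of each peak with its own windows was not used. Neighboring peaks were counted as separate. With 1 mismatch allowed, where the RBPJ consensus was matched exactly, the CTCF core was present in 231 peaks, or 22.1% (19.7 to 24.8), against 2.06% of the windows (43 of 2084; odds ratio 13.5, 9.65 to 18.9, Fisher's exact adjusted p = 8.34e-74). With no mismatch allowed in the core the odds ratio was 31.5, and with 2 allowed it was 4.00. The first 6 bases of the RBPJ consensus alone gave an odds ratio of 2.67. Among peaks and windows with a GC content of 50 to 60%, a range chosen after seeing the data, the odds ratios were 4.95 for RBPJ (2.68 to 9.15) and 8.17 for CTCF (5.15 to 13.0). Most peaks held neither motif, 728 of 1043 or 69.8% (66.9 to 72.6).

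**Figure D1:**
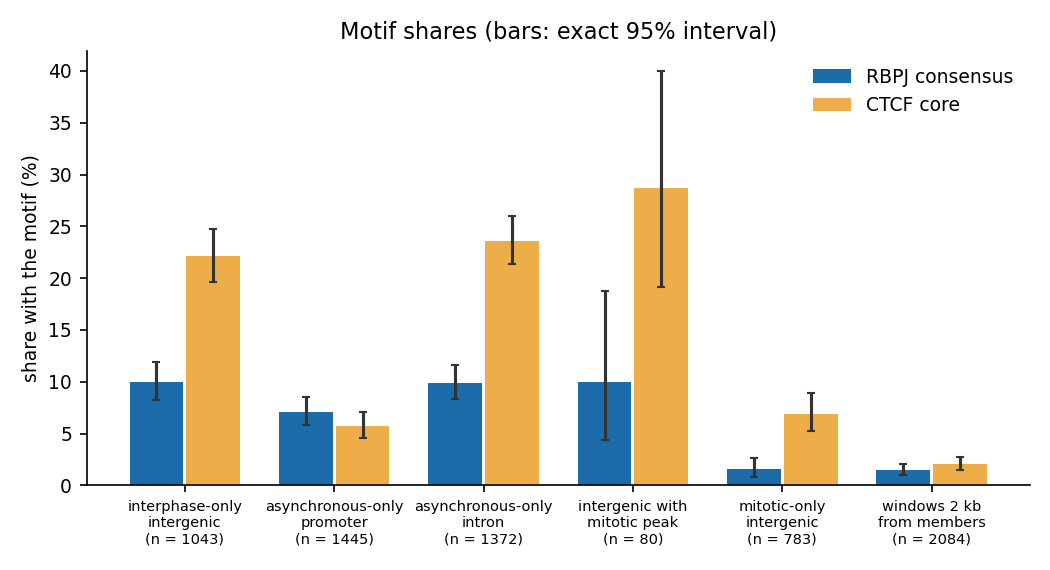
Share of sequences (%) with the RBPJ consensus (blue) or the CTCF core (yellow) in the interphase-only intergenic peaks, in other groups of peaks and in windows 2 kb from the members, with n below each group and exact 95% intervals as error bars. The interphase-only intergenic peaks (9.97% and 22.1%) stand close to the asynchronous-only intron peaks (9.91% and 23.6%) and above the mitotic-only intergenic peaks (1.53% and 6.90%).

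Were these motif shares those of other asynchronous peaks? The 1372 asynchronous-only peaks in introns had nearly the same shares, 9.91% for RBPJ (odds ratio 1.01, 95% interval 0.769 to 1.32, adjusted p = 1) and 23.6% for CTCF (odds ratio 0.920, 0.759 to 1.12, Fisher's exact adjusted p = 0.465), and a difference was not detectable with these numbers of peaks. The 1445 asynchronous-only peaks at promoters differed. The CTCF core was present in 5.74% of them, and the odds ratio of the interphase-only intergenic peaks against them was 4.67 (3.58 to 6.09, Fisher's exact adjusted p = 2.67e-33), or 2.29 with 2 mismatches allowed. The RBPJ consensus was present in 7.06% of the promoter peaks (odds ratio 1.46, 1.10 to 1.94, Fisher's exact adjusted p = 0.0132). This smaller difference did not pass the threshold of 0.05 under 4 alternatives, with odds ratios of 1.27 to 1.41. The 474 asynchronous-only peaks at distal promoters, 1 to 10 kb upstream of a start, held the RBPJ consensus at 7.59% (5.38 to 10.4) and the CTCF core at 21.7% (18.1 to 25.7), and were not tested. Among the 80 intergenic asynchronous peaks that did have a mitotic peak within 250 bp, 8 held the RBPJ consensus (10.0%, 4.42 to 18.8) and 23 the CTCF core (28.75%, 19.2 to 40.0).

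Mitotic peaks in the same kind of sequence held both motifs less often. Of the mitotic list, 784 peaks had no asynchronous center within 250 bp and met the same limits of distance to genes, and 783 of them, cut to 173 bp about their center, were free of undetermined bases. The RBPJ consensus was present in 12 (1.53%) and the CTCF core in 54 (6.90%). Against them the odds ratio of the interphase-only intergenic peaks was 7.12 for RBPJ (3.89 to 13.0) and 3.84 for CTCF (2.81 to 5.25). These values describe the peaks of 1 library beside those of another, and no test of a difference between the populations could be made. The RBPJ odds ratio was 2.12 with the first 6 bases, 10.8 in the central 100 bp and 15.4 among peaks at or above the median score of their list. The CTCF odds ratio was 2.14 with 2 mismatches allowed. No mitotic-only intergenic peak held both motifs (0 of 783, 0 to 0.470%), whereas 20 interphase-only intergenic peaks did (1.92%, 1.18 to 2.95). Each motif alone was already less frequent in the mitotic-only peaks, so this contrast is not a separate result. Both motifs were also present in 1.68% of the asynchronous-only intron, 1.27% of the distal promoter and 0.346% of the promoter peaks. The share was 2.5% in the 80 intergenic asynchronous peaks that had a mitotic peak.

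Both motifs lay toward the middle of the peaks. For the RBPJ consensus, 50 of the 104 peaks had a match with its center within 25 bp of the peak center (48.1%, 38.2 to 58.1), where an even spread along the peak would place 30.1%. For the CTCF core the count was 117 of 231 (50.6%, 44.0 to 57.3), where an even spread would place 30.9%. The even spread is that of single matches. Where a peak held several, as 20 peaks did for CTCF, the match nearest to the center was taken, which raises the share. Among the 10 further motifs described below, the share ran from 17.9% (ETS, 28 peaks) to 50% (octamer, 14 peaks), so a central place was not particular to RBPJ and CTCF. The median distance of the nearest match from the peak center was 27.5 bp for RBPJ and 24.5 bp for CTCF. Of the 107 RBPJ matches, 68 read TTCCCACA and 39 TTCCCACG, and 47 were on the plus and 60 on the minus strand. A pair of RBPJ matches was found in 3 peaks, near Scn3b (ENSMUSG00000049281.8), Cmklr1 (ENSMUSG00000042190.6) and Tpcn2 (ENSMUSG00000048677.7), with 66, 31 and 51 bases between the matches. These peaks were named after their sequences were seen. The CTCF matches numbered 253, of which 89 had no mismatch, and 129 were on the plus and 124 on the minus strand.

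**Figure D2:**
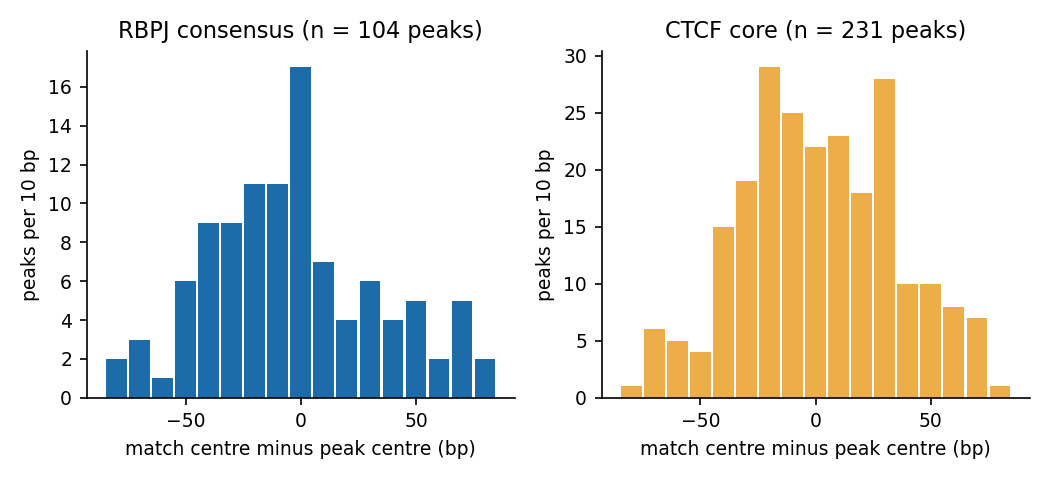
Number of interphase-only intergenic peaks by the distance (bp) of the motif match center from the peak center, in bins of 10 bp, for the RBPJ consensus (left, 104 peaks) and the CTCF core (right, 231 peaks), with the match nearest to the center taken in each peak. RBPJ matches are most frequent in the central bin (17 peaks). The highest CTCF bins are at -25 to -15 bp (29 peaks) and 25 to 35 bp (28), with 22 in the central bin. The median absolute distances are 27.5 bp for RBPJ and 24.5 bp for CTCF.

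The 20 peaks with both motifs scored between 10.1 and 19.0. Their RBPJ and CTCF matches were on the same strand in 13 peaks and on opposite strands in 7, and the match centers were 9 to 85 bp apart, with a median of 46.5 bp and an overlap of the matches in 1 peak. CTCF cores were about as frequent among peaks with an RBPJ consensus (20 of 104, 19.2%, 12.2 to 28.1) as among those without (211 of 939, 22.5%, 19.8 to 25.3). Behind the peaks near 2010109I03Rik and Trim2 came a peak at chr6:143063167-143063339 (score 16.0), 14.6 kb upstream of 5730419I09Rik (ENSMUSG00000030279.8), and a peak at chr8:32034320-32034492 (score 15.2), 166 kb upstream of Dusp26 (ENSMUSG00000039661.8), which encodes a phosphatase. The nearest protein-coding genes of other peaks with both motifs included 6430573F11Rik (ENSMUSG00000039620.9), Ctdp1 (ENSMUSG00000033323.6), Ctif (ENSMUSG00000052928.7), Gpr20 (ENSMUSG00000045281.5), Vmn2r27 (ENSMUSG00000072778.2), Il20rb (ENSMUSG00000044244.11), Klk4 (ENSMUSG00000006948.5), 1810011O10Rik (ENSMUSG00000056313.4), Dusp1 (ENSMUSG00000024190.6), Sestd1 (ENSMUSG00000042272.10), 1700030C10Rik (ENSMUSG00000091071.1), Plch2 (ENSMUSG00000029055.9), 4930579G22Rik (ENSMUSG00000025535.9), AU018091 (ENSMUSG00000054753.7) and Smarcad1 (ENSMUSG00000029920.6). The peak near AU018091, at chr7:3194035-3194207, lay 24.5 kb from Mir290, a member of the microRNA cluster that is abundant in mouse embryonic stem cells.

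The peaks were rich in G and C. Mean GC content was 55.1% ± 3.2 (SD, n = 1043) against 46.4% in the flanking windows, a paired difference of 8.74 percentage points (SD 6.14, two-sided sign-flip permutation test, p = 1e-05, the smallest that the permutations can give). The peak was higher than the mean of its windows at 963 of 1043 sites. Asynchronous-only promoter peaks were at 56.8%, intron peaks at 55.6% and mitotic-only intergenic peaks at 53.2%. CpG dinucleotides numbered 4.05 ± 2.64 (mean and SD) per interphase-only intergenic peak, 8.73 ± 4.03 per promoter peak and 2.00 ± 1.98 per flanking window. In other groups outside promoters the means were 3.79 in intron, 4.35 in distal promoter and 3.10 in mitotic-only intergenic peaks. The 80 intergenic asynchronous peaks with a mitotic peak had a higher mean, 5.51.

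Of 10 further motifs searched on both strands, 6 differed between the peaks and the flanking windows, with p-values adjusted over the 10. The number was 5 with both lists limited to scores at or above their median. The E-box CACGTG, which is read by Myc and related factors, was present in 7.77% of peaks and 2.16% of windows (odds ratio 3.82, 2.63 to 5.54, Fisher's exact adjusted p = 5.71e-12). The GC box GGGCGGG of the Sp and Klf families was present in 5.08% against 1.68% (odds ratio 3.13, Fisher's exact adjusted p = 1.09e-06), and the ETS motif CCGGAAG in 2.68% against 0.768% (odds ratio 3.57, adjusted p = 9.47e-05). The ESRRB motif TCAAGGTCA, named for an orphan nuclear receptor of pluripotent cells, was present in 19 peaks (1.82% against 0.528%, odds ratio 3.5, Fisher's exact adjusted p = 0.00156). The NRF1 motif GCGCATGCG was present in 9 peaks (0.863% against 0.144%, odds ratio 6.04, Fisher's exact adjusted p = 0.00635). The GATA motif AGATAA was less frequent in peaks, 3.84% against 8.35% (odds ratio 0.438, 0.308 to 0.623, Fisher's exact adjusted p = 4.14e-06). GC content differed between peaks and windows, and its part in these differences was not tested. The octamer ATGCAAAT (1.34% against 1.10%), the SOX motif CATTGTT (2.11% against 2.59%), the TEAD motif CATTCCA (2.88% against 3.07%) and the AP-1 motif TGANTCA (6.04% against 4.89%) did not pass the threshold, with adjusted p-values of 0.666, 0.576, 0.825 and 0.251. An E-box overlapped an RBPJ match in 1 peak, and a TEAD and a GATA match each overlapped a CTCF match in 1 peak.

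The scores of the interphase-only intergenic peaks ran from 10.1 to 39.7 with a median of 11.8 and quartiles of 10.6 and 13.5. The medians of the asynchronous-only promoter and intron peaks were 11.8 as well, but many peaks share a score, so tied medians do not show that the scores were alike. The 90th percentile was 16.0 in the interphase-only intergenic peaks, 17.14 in the promoter peaks and 16.5 in the intron peaks. Among the 520 highest scoring peaks of the asynchronous list were 85 interphase-only intergenic peaks (8.15%), against 10.7% of promoter peaks and 8.38% of intron peaks. A score within 20% of the lowest of the list was found at 578 of the 1043 peaks (55.4%), and at 53.8% of the whole list. The 80 intergenic asynchronous peaks with a mitotic peak had a median of 14.15, which is given as a description only.

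The RBPJ consensus was more frequent at stronger peaks. When the peaks were divided by rank into 4 groups, its share was 6.13% (3.54 to 9.76) in the lowest group and 14.6% (10.5 to 19.4) in the highest. The share of the CTCF core was 21.1% (16.3 to 26.5) in the lowest and 19.9% (15.3 to 25.3) in the highest group. By distance to the nearest gene, the CTCF core was at 25.7% (20.5 to 31.4), 27.2%, 19.6% and 16.1% (11.9 to 21.1) from the nearest to the farthest of 4 groups, and the intervals of the end groups overlap slightly. The RBPJ consensus was at 10.3%, 11.1%, 6.92% and 11.5% in the same groups. These shares are descriptions, and the trends were not tested.

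**Figure D3:**
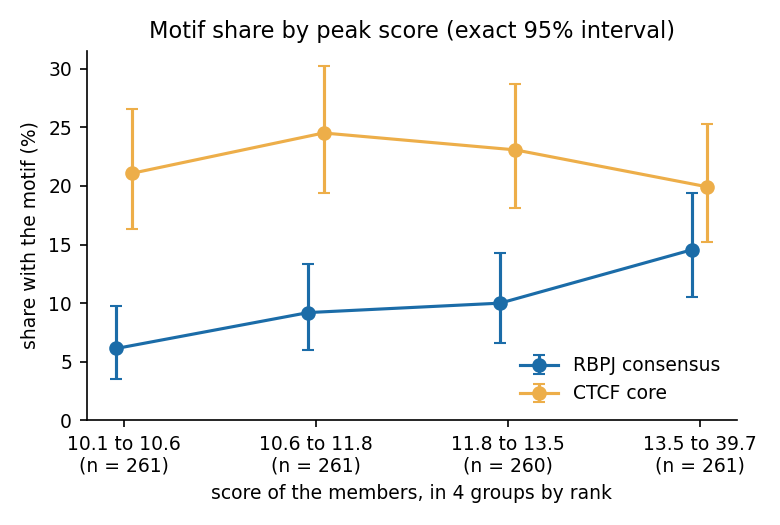
Share (%) of interphase-only intergenic peaks with the RBPJ consensus (blue) or the CTCF core (yellow) in 4 groups by score rank, with exact 95% intervals as error bars and the score range and n of each group below it. The RBPJ share is 6.13% in the lowest and 14.6% in the highest group, and the CTCF share is 21.1% and 19.9%.

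How far from genes did these peaks lie? The median distance from the peak center to the nearest transcript edge was 17.1 kb, with quartiles of 9.09 and 34.5 kb and a range of 1.00 to 467 kb. A transcript edge was within 20 kb of 594 peaks (57.0%, 53.9 to 59.98), and 60 peaks (5.75%, 4.42 to 7.34) were 100 kb or more from any. For the mitotic-only intergenic peaks the median was 25.2 kb, with quartiles of 12.1 and 61.0 kb. Limits on this distance chose both groups, so the difference of medians, -8.18 kb (interphase-only minus mitotic-only), is given as a description. Without chromosomes 8 and 12, which were left out after seeing that they held the most peaks, the difference was -4.45 kb. Of the mitotic-only intergenic peaks, 107 (13.6%, 11.3 to 16.3) were 100 kb or more from any transcript. Measured to the nearest start of a protein-coding gene, the medians were 29.4 kb for the interphase-only and 51.0 kb for the mitotic-only peaks.

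**Figure D4:**
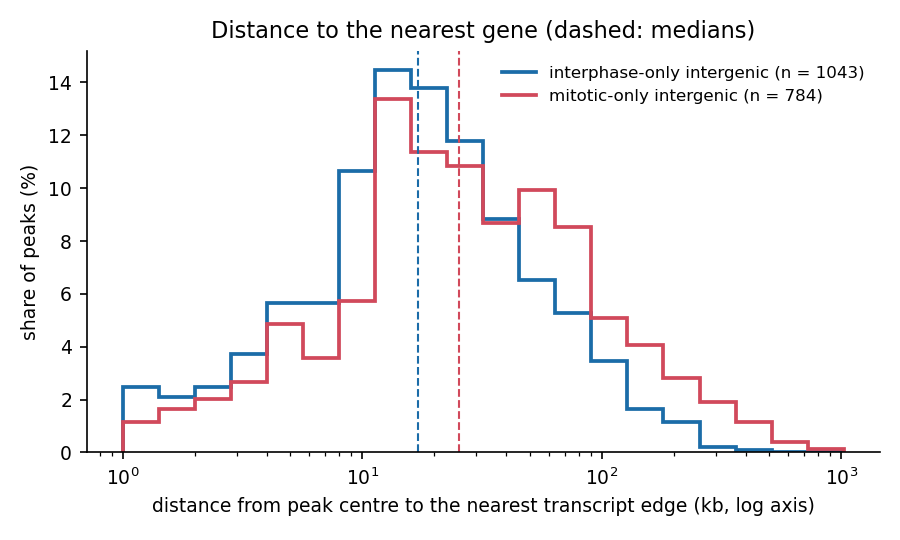
Share of peaks (%) by the distance from the peak center to the nearest transcript edge (kb, log axis) for the 1043 interphase-only intergenic peaks (blue) and the 784 mitotic-only intergenic peaks (red), with dashed lines at the medians. The blue median is 17.1 kb and the red median 25.2 kb, and the red distribution extends farther to the right.

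The gap between the genes on either side of a peak had a median of 70.4 kb (quartiles 39.8 and 139 kb). The flanking genes pointed in the same direction at 505 peaks (48.4%), toward each other at 332 (31.8%) and away from each other at 205 (19.7%), and 1 peak had a gene on one side only. The nearest gene lay with its end toward the peak at 663 peaks (63.6%, 60.6 to 66.5), which the rule itself favors, since it asks for 10 kb from a start and only 1 kb from an end. Measured to the nearest protein-coding start, 555 peaks (53.2%, 50.1 to 56.3) were upstream and 488 downstream. The nearest gene of any kind was protein-coding at 755 peaks (72.4%), a pseudogene at 71, a long intergenic noncoding RNA at 51, another processed transcript at 50 and a microRNA at 35. Protein-coding genes made up 59.98% of the annotated genes. That is a count of genes and not the share at random intergenic positions, which was not obtained.

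The 10 highest scoring peaks included those near Traf3, Hes5, Rnf144b and Nufip1 shown above, and the other 6 held neither motif. The peak at chr10:6091817-6091989 (score 33.8) lay 11.7 kb upstream of Akap12 (ENSMUSG00000038587.7), which encodes a scaffold of protein kinase A. The peak at chr4:119928830-119929002 (score 33.3) lay 10.8 kb past the end of Foxo6 (ENSMUSG00000052135.7), a forkhead factor gene. The peak at chr8:108975306-108975478 (score 30.0) lay 25.8 kb past the end of Zfp90 (ENSMUSG00000031907.7), and the peak at chr4:141126109-141126281 (score 29.5) lay 5.78 kb past the end of Fblim1 (ENSMUSG00000006219.6). The peak at chr12:88177584-88177756 (score 29.1) was 48.1 kb downstream of the nearest protein-coding start, that of 6430527G18Rik (ENSMUSG00000034168.6). The peak at chr12:106674305-106674477 (score 28.3) was 127 kb upstream of Bdkrb2 (ENSMUSG00000021070.5), a bradykinin receptor gene, and 52.3 kb from 2810011L19Rik. Thus 3 of the 10 were on chromosome 12 and 3 on chromosome 4.

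The fifth highest scoring peak with an RBPJ consensus was at chr12:88272401-88272573 (score 24.1), 15.9 kb upstream of 2310044G17Rik (ENSMUSG00000034157.5). Of the peaks with a CTCF core, those near Traf3 and Golga5 were followed by peaks near Inf2 (ENSMUSG00000037679.7), Nanog (ENSMUSG00000012396.5) and Plekhg6 (ENSMUSG00000038167.6). The peak at chr12:113790366-113790538 (score 20.7), 36.5 kb upstream of the formin gene Inf2, held 2 CTCF matches. The peak at chr6:122619493-122619665 (score 19.8) lay 37.9 kb upstream of Nanog, a homeobox gene of pluripotency, with Dppa3 (ENSMUSG00000046323.2) 39.3 kb away on the other side. The peak at chr6:125361362-125361534 (score 19.8) lay 30.6 kb upstream of Plekhg6.

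The peak farthest from any gene was at chr3:35048184-35048356 (score 11.8), 467 kb from Sox2ot and 499 kb downstream of Sox2 (ENSMUSG00000074637.3). The next were a peak on chromosome 18 near Skor2 (ENSMUSG00000091519.1) (score 10.6), 299 kb from that gene, and a peak at chr12:99159744-99159916 (score 17.7), 281 kb past the end of Galc (ENSMUSG00000021003.8), the gene for galactosylceramidase. None of these 3 peaks held an RBPJ consensus or a CTCF core. Members also occurred close together, with 171 of the 1043 peaks (16.4%) within 10 kb of another and 78 groups of at least 2 linked by such gaps. The same share was not obtained for other groups of peaks, so it is not given as a trait of the members. The largest group held 5 peaks, from chr4:141108412-141108584 to chr4:141127241-141127413, between Spen (ENSMUSG00000040761.9) and Fblim1. The scores of the 5 peaks were 16.0, 10.1, 12.2, 29.5 and 13.1, and none had either motif. Spen encodes a corepressor that RBPJ recruits.

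Each peak was then assigned to the protein-coding gene with the nearest transcript start. Of 22380 protein-coding genes, 834 (3.73%) were nearest to at least 1 interphase-only intergenic peak, and 575 (2.57%) were nearest to at least 1 mitotic-only intergenic peak. By symbol, 671 genes were nearest to 1 peak, 127 to 2 and 33 to 3 or more. Vrk1 (ENSMUSG00000021115.8), which encodes a nuclear kinase, was nearest to 8 peaks, at 47.3 to 369 kb, with a highest score of 24.1. Inhbb (ENSMUSG00000037035.5), the gene of the activin B subunit, was nearest to 6 peaks with scores of at most 13.9. Klf5 (ENSMUSG00000005148.7) and Sall1 (ENSMUSG00000031665.6), zinc-finger genes expressed in pluripotent cells, and Ly86 (ENSMUSG00000021423.5), a gene of innate immunity, were each nearest to 5. The Klf5 peaks lay 27.1 to 211 kb downstream of its start and 4 of them scored 18.2 or more. The Sall1 peaks lay 29.1 to 90.2 kb from its start. Next came 5830454E08Rik, the Klf family gene Klf3 (ENSMUSG00000029178.7) and the Mediator gene Med13l (ENSMUSG00000018076.8) with 4 peaks each, followed at lower ranks by Fgd2 and Tpcn2, which also had 4. An RBPJ consensus or CTCF core was found at peaks of 5830454E08Rik, Fgd2 and Tpcn2, and at none of the peaks of the other 7 genes. Of the 834 nearest genes, 80 (9.59%, 7.68 to 11.8) had an asynchronous peak at their own promoter, against 7.50% of all protein-coding genes.

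Genes of pluripotency were among the nearest genes. This gene list and those below were chosen with earlier results of these data known, so their shares are descriptions and not independent evidence. Of 50 genes on the pluripotency list, 18 (36%, 22.9 to 50.8) were nearest to at least 1 interphase-only intergenic peak, where the share over all protein-coding genes was 3.73%. They were Sox2, Klf5, Spry4 (ENSMUSG00000024427.6), Id1 (ENSMUSG00000042745.9), Nanog and Sall1, taken first by their highest score, and 12 others. A further gene of the list, Tfcp2l1, is annotated as Tcfcp2l1 (ENSMUSG00000026380.9) and was not counted, although it was nearest to a peak with a score of 16.0. A peak at chr3:34656793-34656965 (score 23.6) lay 108 kb downstream of Sox2, a core pluripotency factor gene. The strongest Klf5 peak was at chr14:99747451-99747623 (score 22.4), 49.6 kb downstream of its start. For Spry4, a gene of a feedback inhibitor of FGF signaling, the strongest peak scored 21.5 and lay 25 kb downstream of its start. The peak of Id1, which encodes an inhibitor of helix-loop-helix factors, was at chr2:152543886-152544058 (score 20.7), 18 kb upstream, and held an RBPJ consensus. The strongest Sall1 peak was at chr8:91515796-91515968 (score 17.7), 52.2 kb downstream of its start. The 32 peaks at these 18 genes had a median score of 12.45 (11.8 over all members). The RBPJ consensus was present at 2 of them and the CTCF core at 3 (6.25% and 9.38%, against 9.97% and 22.1% over all members).

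The genes of the pluripotency list also had long surroundings, and mitotic-only peaks were frequent there too. The stretch of chromosome in which a gene had the nearest protein-coding start had a median of 98.6 kb for this list and 45.7 kb for all protein-coding genes. Per Mb of such stretches there were 3.02 interphase-only intergenic peaks around the list genes, and 0.395 around all protein-coding genes. For the mitotic-only intergenic peaks these densities were 2.17 and 0.297 per Mb, and 8 of the 50 genes (16.0%) were nearest to one, where the share over all genes was 2.57%. Peaks of both kinds were thus denser around these genes than around all genes.

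In the Notch pathway list, 6 of 53 genes (11.3%, 4.27 to 23.0) were nearest to an interphase-only intergenic peak (3.73% of all genes), and 2 (3.77%) to a mitotic-only one (2.57% of all genes). They had 10 peaks, 1.77 per Mb of the stretches of the list against 0.395 around all genes. Mitotic-only intergenic peaks were denser there too, at 0.707 against 0.297 per Mb. An RBPJ consensus was present at 4 of the 10 and a CTCF core at none, where the shares over all members were 9.97% and 22.1%. Among the targets, Hes5 had the peak shown above. Hes1 (ENSMUSG00000022528.7), the repressor gene that is the best known Notch target, had a peak at chr16:30121116-30121288 (score 14.4) with an RBPJ consensus, 54.8 kb downstream of its start, and another at chr16:30039499-30039671 (score 10.1), 24.9 kb upstream. Dlk1 (ENSMUSG00000040856.11), which encodes a ligand-like membrane protein, had peaks at chr12:110674518-110674690 (score 14.4), 16.4 kb upstream, and at chr12:110627186-110627358 (score 10.6), 63.8 kb upstream, both with an RBPJ consensus. Spen had 3 peaks of the densest group. Psen2 (ENSMUSG00000010609.9), which encodes a catalytic subunit of gamma-secretase, had a peak 21 kb upstream (score 10.1). Rbpj (ENSMUSG00000039191.6) itself had a peak at chr5:53878398-53878570 (score 10.1), 68.5 kb upstream of its start.

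The other lists are given by their counts in the same way. Symbols that begin like those of developmental transcription factor families numbered 190, among them Tbxa2r, Gatad1, Gatad2a and Gatad2b, which belong to none of these families and were nearest to no peak. Of these 190 genes, 13 (6.84%, 3.69 to 11.4) were nearest to an interphase-only and 13 to a mitotic-only intergenic peak. The strongest were Foxo6, Sox2, Pou4f2 (ENSMUSG00000031688.1), Nkx2-3 (ENSMUSG00000044220.11), Sox9 (ENSMUSG00000000567.4) and Foxo1 (ENSMUSG00000044167.5), with highest scores of 33.3, 23.6, 17.7, 16.5, 14.4 and 13.9. Of the Wnt pathway, 6 of 60 genes (10.0%, 3.76 to 20.5) were nearest to an interphase-only peak, namely the ligand genes Wnt10a (ENSMUSG00000026167.8) and Wnt11 (ENSMUSG00000015957.4), the receptor genes Fzd7 (ENSMUSG00000041075.7) and Fzd9 (ENSMUSG00000049551.2), the acyltransferase gene Porcn (ENSMUSG00000031169.7) and the antagonist gene Sfrp1 (ENSMUSG00000031548.7), and 6 were nearest to a mitotic-only peak. Endoderm, into which F9 cells can differentiate, was represented by Eomes (ENSMUSG00000032446.8) and Dab2 (ENSMUSG00000022150.9), 2 of 34 genes (5.88%, 0.720 to 19.7). The cohesin regulator Pds5a (ENSMUSG00000029202.8) and the cohesin subunit Rad21 (ENSMUSG00000022314.9) were the 2 of 19 genes of the CTCF and cohesin list (10.5%, 1.30 to 33.1), with peaks 27.0 and 22.3 kb upstream of their starts. The intervals of these 4 lists are wide, and their lower ends lie below or close to the 3.73% of all genes. In the order developmental, Wnt, endoderm and CTCF and cohesin, interphase-only intergenic peaks numbered 0.670, 0.673, 0.475 and 0.989 per Mb (all genes 0.395). Mitotic-only intergenic peaks numbered 0.641, 0.898, 0.316 and 0 per Mb (all genes 0.297). In the same order, 6.84%, 10.0%, 5.88% and 0% of the genes were nearest to a mitotic-only peak (all genes 2.57%).

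The peaks were spread unevenly over the chromosomes. Chromosome 8 held 108 peaks (0.820 per Mb) and chromosome 12 held 84 (0.693 per Mb), while the density around all protein-coding genes was 0.395 per Mb. Together chromosomes 8 and 12 carried 18.4% of the peaks on 9.59% of the sequence. The whole asynchronous list was dense on chromosome 8 too, with 3.93 peaks per Mb against 1.97 over all chromosomes, and 20.8% of its chromosome 8 peaks were members, close to the 20.03% of the whole list. On chromosome 12 the share was 31.0%, and on chromosome 13, which had 0.449 members per Mb, it was 32.0%. Chromosome X held 17 peaks (0.102 per Mb) and chromosome 3 held 31 (0.194 per Mb), and the whole asynchronous list had 0.588 per Mb on chromosome X. The mitotic-only intergenic peaks were densest on the same chromosomes, with 1.21 per Mb on chromosome 8 and 1.13 per Mb on chromosome 12. The number of copies of each chromosome in these cells was not examined.

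**Figure D5:**
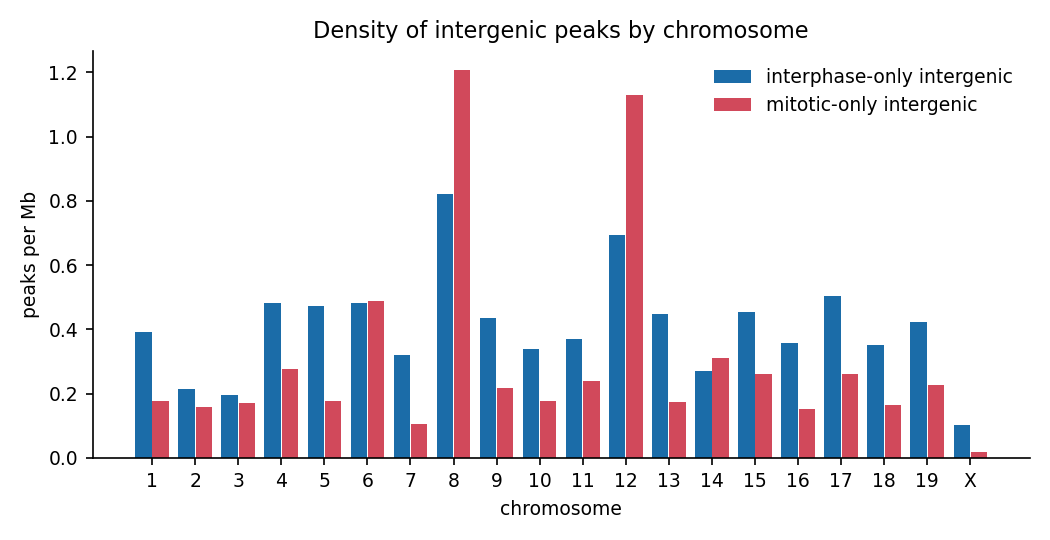
Interphase-only (blue) and mitotic-only (red) intergenic peaks per Mb of each chromosome. Chromosomes 8 and 12 are highest in both groups, at 0.820 and 0.693 per Mb in blue and 1.21 and 1.13 per Mb in red.

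The distance to the nearest mitotic center chose the peaks, and its values are a description. The median was 113 kb, with 27 peaks within 1 kb and 124 (11.9%) within 10 kb. The rule placed a limit on 3 distances, and the peaks on each side of a limit were close to it. The member nearest to a mitotic center was at chr15:101814811-101814983 (score 12.7, 269 bp), and the peak last left out was at chr8:97727951-97728123 (score 13.1, 248 bp). Upstream of a start, the nearest member was at chr2:164693179-164693351 (score 10.1, 10054 bp) and the peak last left out at chr10:75346069-75346241 (score 18.2, 9988 bp). Past an end, the nearest member was at chr9:118396166-118396338, behind Eomes (score 10.1, 1002 bp), and the peak last left out at chr5:141095508-141095680 (score 13.5, 946 bp).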

How the data were processed

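Anti-RBPJ ChIP-seq peak lists from replicate 1 of asynchronous and of mitotic F9 cells were examined, 1 per population. The authors aligned reads uniquely to mm9 with Bowtie 0.12.7 and used HOMER to call peaks over input, according to the submitters' processing notes. The deposited lists give positions and a score for each peak, and depth is unknown from them. The members and the gene lists were chosen with earlier results of these data known.

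Transcripts were those of GENCODE for NCBIM37, the build of mm9 (95495 transcripts, 37310 genes). Tables were handled in Python 3.11.15 (pandas 2.3.3, numpy 2.4.6), sequences were taken from the genome with pysam 0.24.0, and tests were made with scipy 1.17.1 and plots with matplotlib 3.10.9. Promoters extended over 1 kb before and 100 bp after a start. Motifs were searched on both strands. Mitotic peaks were cut from 203 to 173 bp about their center, and 2 flanking windows and 1 mitotic peak with undetermined bases were left out. Odds ratios have Woolf and shares exact Clopper-Pearson intervals at 95%. The permutation test of GC content used 100000 permutations. Planned tests of score and of distance to genes are not given, because tied scores fix the difference of medians and because the rule used the distance. The p-values of the comparisons with mitotic-only peaks, which belong to the 8 adjusted together, are not given, because the lists come from 1 library each. All tests were two-sided. Peaks named were the 10 highest scoring, the 5 highest with each motif, those with both, the 3 farthest from genes, the densest group and those at each limit, with the chromosome 14 site near Nufip1. Genes named were the 8 nearest to most peaks and up to 6 per list by score. Of the 51 symbols of the pluripotency list, 50 matched the annotation as written. Motif search, distances, the rule and the tests were tested on simulated data. Alternatives concerned the distance between lists, the annotation, the limits, the score minimum, chromosomes, motifs, windows, base composition and neighboring peaks.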

Additional observations from a re-analysis of the deposited data

How the results depend on the processing

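Counts that moved by more than 1.5 times and comparisons that changed direction or side of the threshold under an alternative are given here. The number of members was 781 to 1258 under 8 alternatives and 563 with both lists limited to scores at or above their median, where fewer peaks enter. That limit also gave 474 nearest protein-coding genes and 0 genes of the endoderm list, 8 of the developmental transcription factor families and 1 of the CTCF and cohesin list. The RBPJ odds ratio against promoter peaks no longer passed the threshold with protein-coding transcripts only (1.27, Fisher's exact adjusted p = 0.133), above 20 kb upstream (1.38, adjusted p = 0.0643), at or above the median score (1.32, adjusted p = 0.173) and at a GC content of 50 to 60% (1.41, adjusted p = 0.0609), and the cause was not tested. Against intron peaks, where no difference was called, the RBPJ odds ratio fell below 1 with protein-coding transcripts only (0.901), above 20 kb upstream (0.951), at or above the median score (0.864), without chromosomes X and Y (0.993), with the first 6 bases (0.937) and at a GC content of 50 to 60% (0.954), and the CTCF odds ratio was 1.00 without mismatch. Of the further motifs, 6 differed from the flanking windows, and 5 did with both lists limited to scores at or above their median. The pluripotency list had 13 to 21 genes nearest to a member under 9 alternatives. Limits on GC content, leaving out chromosomes 8 and 12 and counting peaks within 1 kb once were chosen after seeing the data. The alternative on repeats was not run, because repeats are not marked in the genome used here. No paired analysis was possible because replicate 2 has no peak list among the files used here. Variation between cultures is not covered by any of these values.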
